A study of Rattus norvegicus with 6 samples.

Results

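The miR-30 family was examined in small RNA libraries from rat lens, as all rows of the miRNA count table whose rat name is miR-30a, b, c, d, or e, with both arms of each hairpin. The rule found 11 of the 910 names in the table, made up of 5 guide arms (the 5p arms) and 6 arms from the other strand (the 3p arms, with miR-30c-1 and miR-30c-2 listed apart). The 6 libraries were made from the capsular membrane of lenses of Sprague Dawley rat pups that were 8 days old when the model was set up, with no genetic change in either group. The 3 pups of the control group were injected under the skin of the neck with saline, and the 3 pups of the Na2SeO3 group with sodium selenite (20 μmol per kg of body weight), in each case on days 3, 5, and 7. The lenses were taken on day 15, and each library comes from a different rat. Selenite given to young rats clouds the lens within days and is a common model of nuclear cataract, so the question put to these libraries is which miRNAs differ between cloudy and clear lenses.

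A miRNA hairpin is cut into a duplex of a 5p and a 3p strand, and the strand that is kept by an Argonaute protein guides it to mRNAs that pair with the seed, bases 2 to 8 of the miRNA. Members of a family carry the same seed and are therefore predicted to bind largely the same mRNAs. The miR-30 family is found in most tissues, and it is known for restraining epithelial-to-mesenchymal transition and fibrosis through targets such as Snai1 and Ctgf. The lens capsule is the basement membrane around the lens, and the lens epithelium lies on its inner side.

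Mature sequences were taken from the RefSeq table of assembly GRCr8, which held 6 of the 11 arms, 3 of them guide arms. They are given 5′ to 3′ with the seed in capitals, to show what the members have in common and how little separates some of them.
rno-miR-30a-5p: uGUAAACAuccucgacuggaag
rno-miR-30e-5p: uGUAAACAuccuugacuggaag
rno-miR-30c-5p: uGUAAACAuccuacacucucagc
rno-miR-384-5p: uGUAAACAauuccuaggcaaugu
The first 3 are miR-30 guides of 22, 22, and 23 bases. The last is not a member by name, but it carries the same seed and is given for comparison. Counted from the 5′ end, miR-30a-5p and miR-30e-5p differ by the single substitution C13U, and over 22 bases miR-30a-5p and miR-30c-5p differ at 5 positions (C13A, G14C, G18C, G19U, and A20C), all in the 3′ part. Reads of miR-30a-5p and miR-30e-5p are therefore separated by 1 base, and how the authors' counting treated reads with a mismatch is not given in the sources used here, so the division of reads between these 2 members is uncertain.

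Of the 6 arms from the 3p strand, 3 had a sequence in the table, and these 3 do not carry the guide seed.
rno-miR-30a-3p: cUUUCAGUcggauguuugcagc
rno-miR-30c-1-3p: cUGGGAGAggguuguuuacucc
rno-miR-30c-2-3p: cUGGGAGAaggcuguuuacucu
These are shown because the 3p arms of miR-30c-1 and miR-30c-2 tell apart 2 genes that make the same guide. They have a common seed and differ by G9A, U12C, and C22U. The seed of miR-30a-3p is another one, so these 3 strands hold 2 different seeds.

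The family has 6 genes in 3 pairs of neighbours. In GRCr8, Mir30a lies on the plus strand at chr9:33233941-33234011 and Mir30c2 on the same strand at chr9:33253682-33253765, with 19.7 kb between them. Mir30a lies inside no other annotated gene, whereas Mir30c2 lies within the spans of the pseudogene Rbx1-ps1 and the long non-coding RNA gene LOC134480562. Mir30c1 at chr5:139634455-139634543 and Mir30e at chr5:139637450-139637541 are on the minus strand, 2.9 kb apart, within the span of the protein-coding gene Nfyc, which encodes a subunit of the transcription factor NF-Y. Mir30b and Mir30d are the remaining pair of neighbours. Both Mir30c1 and Mir30c2 yield miR-30c-5p, so its counts cannot be assigned to a locus. These positions describe the annotation only, because the build behind the count table is not named.

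Control libraries 1, 2, and 3 held 79978, 60631, and 55061 counts on the 11 arms, and Na2SeO3 libraries 1, 2, and 3 held 17429, 22987, and 21461. Values of single libraries are given in this order throughout. The libraries differed in the counts on all names, with 1806596 to 2829903 in the control group and 663096 to 968151 in the Na2SeO3 group. Thus 3 counts correspond to at most 1.66 and 4.52 CPM (the count as a fraction of the library total, times 1e6), respectively. The raw reads that the study lists overlap between the groups. A smaller part of them was counted on miRNA names in every Na2SeO3 library than in any control library, and the cause was not tested. The marker sums that follow are in CPM after TMM scaling of the library sizes, with the control range before the Na2SeO3 range. Markers of the lens were abundant, with miR-184 and miR-204-5p together at 88506 to 102665 and 43940 to 55215 CPM, and 1 of the 2 fell at an adjusted p-value of 0.05 (edgeR), by which 13.8% of the 341 miRNAs tested fell and 20.8% rose. The 4 muscle miRNAs summed to 6368 to 8144 and 12835 to 14183 CPM, and 4 of 4 rose. The 3 erythroid miRNAs summed to 246 to 300.2 and 393 to 511 CPM, and 1 of the 2 tested rose. The sums of the 5 neural and glial miRNAs overlapped, at 28099 to 35364 and 34707 to 44702 CPM, with 2 of the 4 tested past the threshold and higher, miR-338-3p at a log2 fold change of -0.93, and miR-219a-5p at 0 in 4 of the 6 libraries. Those of the 3 retinal sensory miRNAs overlapped as well, at 144754 to 195553 and 186156 to 195552 CPM, and 0 of 3 passed. As a fraction of the library total without TMM scaling, these last 2 lists did not overlap, at 28487 to 30275 and 39524 to 46337 CPM for the neural and glial and 148208 to 167413 and 196512 to 211991 CPM for the retinal miRNAs. What part these values have in the results on miR-30 was not tested. In such bulk samples, fewer cells of a type and less RNA per cell cannot be told apart.

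The guide arms together took 2.70%, 2.77%, and 2.93% of all counts in the control libraries and 2.47%, 2.23%, and 2.28% in the Na2SeO3 libraries. The mean share was 2.80% ± 0.12 in control and 2.33% ± 0.13 in Na2SeO3 libraries (SD, n = 3 each). Every control library lay above every Na2SeO3 library, where after TMM scaling 46.3% of the 341 miRNAs tested had no overlap between groups. The 95% Wilson interval of each guide share was at most ± 0.04 percentage points. It covers counting error only (PCR reads are not independent molecules). The 3p arms took 0.13% ± 0.02 and 0.16% ± 0.01 (SD, n = 3 each), so most of the family's reads were guides in both groups.

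Among the guides, miR-30d-5p was the most abundant in all 6 libraries. It made up 50.1% ± 1.01 of the guide counts in the control group and 50.7% ± 3.70 in the Na2SeO3 group (SD, n = 3 each). The share of miR-30c-5p was 22.3% ± 0.81 and 21.1% ± 2.53, and that of miR-30a-5p was 18.9% ± 0.97 and 18.1% ± 2.35. The remainder was split between miR-30e-5p, at 4.75% ± 0.61 and 4.86% ± 1.37, and miR-30b-5p, at 4.02% ± 0.34 and 5.26% ± 1.33 (SD, n = 3 each). The make-up of the family thus differed by less than the spread within the Na2SeO3 group for each of the 5 guides.

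Normalized values below are CPM after TMM scaling, which assumes that the bulk of miRNAs keep their level. The order of levels in the control group was miR-30d-5p, miR-30c-5p, miR-30a-5p, miR-30e-5p, and miR-30b-5p. Within this order, miR-30c-5p and miR-30a-5p were not separated by their ranges in either group, although miR-30c-5p had more counts in 5 of the 6 libraries. The same held for miR-30e-5p and miR-30b-5p, of which miR-30e-5p had more counts in 4 of 6. The plot of levels by arm shows the gap between the 3 abundant and the 2 rarer guides in every library.

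**Figure D1:**
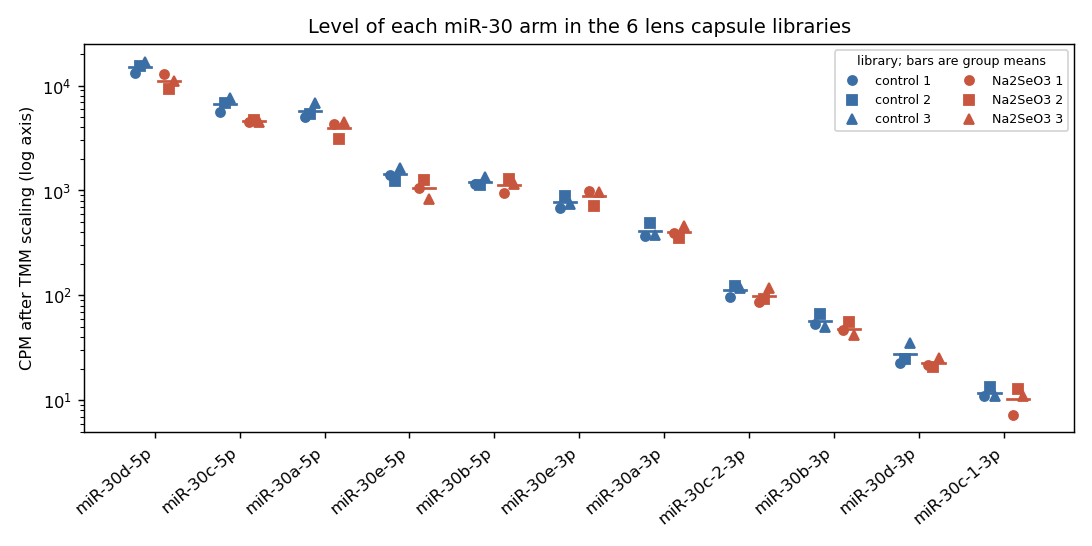
Level of each miR-30 arm in CPM after TMM scaling, on a log axis, with 1 symbol per library (3 control in blue, 3 Na2SeO3 in red) and a bar at each group mean. The guide arms miR-30d-5p, miR-30c-5p, and miR-30a-5p are the only arms whose control libraries all lie above the Na2SeO3 libraries, and the 3p arms cover a range from about the level of the rarer guides down to miR-30c-1-3p.

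The 3 abundant guides were lower in the Na2SeO3 group. All 11 arms passed the filter on low counts (filterByExpr at a minimum count of 10), and 3 of them, miR-30c-5p, miR-30a-5p, and miR-30d-5p, fell at an adjusted p-value of 0.05 (edgeR's quasi-likelihood test, Benjamini-Hochberg adjustment over the 341 miRNAs tested). Of all miRNAs tested, 13.8% fell and 34.6% changed in either direction by that rule. No arm rose, where 20.8% of all miRNAs did. No miR-30 arm was a DEmiRNA, which the methods define by an absolute log2 fold change of 1 as well and which 16.4% of all miRNAs were. By the unadjusted p-value, 4 arms passed 0.05 (44.3% of all miRNAs did) and 0 passed both thresholds, and DESeq2 called 0 DEmiRNAs among the arms too. The 3 arms were also the 3 of 11 whose groups did not overlap, which was so for 46.3% of all miRNAs. The log2 fold change was below 0 for 10 of the 11 arms and for 45.2% of all miRNAs.

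The level of miR-30c-5p was 5652, 6855, and 7629 CPM in the control libraries and 4526, 4686, and 4468 CPM in the Na2SeO3 libraries. The Na2SeO3 libraries lay close together, all below the lowest control library. The means were 6712 ± 996 and 4560 ± 113 CPM (SD, n = 3 for each group). On the log2 scale the difference was -0.56 with a standard error of 0.15 (edgeR, adjusted p = 0.0124). The adjusted p rose to 0.0596 without control library 2 and to 0.0668 without control library 3.

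For miR-30a-5p the values were 5033, 5307, and 6774 CPM in the control libraries and 4285, 3105, and 4510 CPM in the Na2SeO3 libraries. The groups did not overlap, and Na2SeO3 library 2 was the lowest. The means were 5705 ± 936 and 3966 ± 755 CPM (SD, n = 3 for each group). On the log2 scale the difference was -0.52 with a standard error of 0.18 (edgeR, adjusted p = 0.0371). This call was lost in 5 of the 6 fits that left out a library, with an adjusted p between 0.0544 and 0.188, and it held only without Na2SeO3 library 1 (adjusted p = 0.0241).

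The most abundant member, miR-30d-5p, was at 13117, 15232, and 16890 CPM in the control libraries and at 13009, 9265, and 11011 CPM in the Na2SeO3 libraries. The groups were separated only just, by control library 1 and Na2SeO3 library 1. As a fraction of the library total without TMM scaling, control library 1 lay just below Na2SeO3 library 1, so the groups overlapped. The means were 15079 ± 1891 and 11095 ± 1873 CPM (SD, n = 3 for each group). On the log2 scale the difference was -0.44 with a standard error of 0.16 (edgeR, adjusted p = 0.0472). It too passed in only 1 of the 6 fits with a library left out, again the one without Na2SeO3 library 1 (adjusted p = 0.0110), and in the other 5 the adjusted p was 0.0585 to 0.190. Without the filter on low counts its adjusted p was 0.0636 (edgeR), which left 2 arms past the threshold.

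The 2 rarer guides did not pass. The level of miR-30e-5p was 1407, 1226, and 1640 CPM in the control libraries and 1062, 1253, and 821 CPM in the Na2SeO3 libraries. Control library 2 lay below Na2SeO3 library 2, so the groups overlapped. The log2 fold change was -0.45 with a standard error of 0.19 (edgeR, adjusted p = 0.0797). It was as large as that of miR-30d-5p but with a wider spread. This guide passed with DESeq2 (adjusted p = 0.0196), and in edgeR with RLE (0.0498) or upper-quartile scaling (0.0366). It also passed in edgeR with a stricter filter of 10 counts or more in all 6 libraries (0.0490) and with rat names only (0.0455). Among the fits that left out a library, it passed only without Na2SeO3 library 2 (edgeR, adjusted p = 0.0316). The highest adjusted p of those fits was 0.281, without control library 3 (edgeR).

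For miR-30b-5p, which is made beside miR-30d, the values were 1159, 1115, and 1336 CPM in the control libraries and 940, 1294, and 1151 CPM in the Na2SeO3 libraries. The groups overlapped, and the log2 fold change of -0.09 with a standard error of 0.17 (edgeR, adjusted p = 0.736) was the smallest of the guides. With each library left out in turn, this value ranged from -0.20 to -0.0024. To see whether miR-30b-5p differed from the other guides in its change, ratios of counts within a library were compared over the 10 pairs of guides, a comparison chosen after seeing the data. The count of miR-30c-5p was 4.88, 6.15, and 5.71 times that of miR-30b-5p in the control libraries and 4.82, 3.62, and 3.88 times in the Na2SeO3 libraries, without overlap between the groups. The log2 ratio differed by -0.45 (two-sided exact permutation test, p = 0.1 and adjusted p = 0.667 over the 10 pairs, where 0.1 is the lowest value possible with 3 libraries per group). The ratio to the neighbour miR-30d-5p was 11.3, 13.7, and 12.6 in the control libraries and 13.8, 7.16, and 9.57 in the Na2SeO3 libraries, and these overlapped (exact permutation test, p = 0.4, adjusted p = 1). A difference in change between the guides was therefore not shown with 3 libraries per group.

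**Figure D2:**
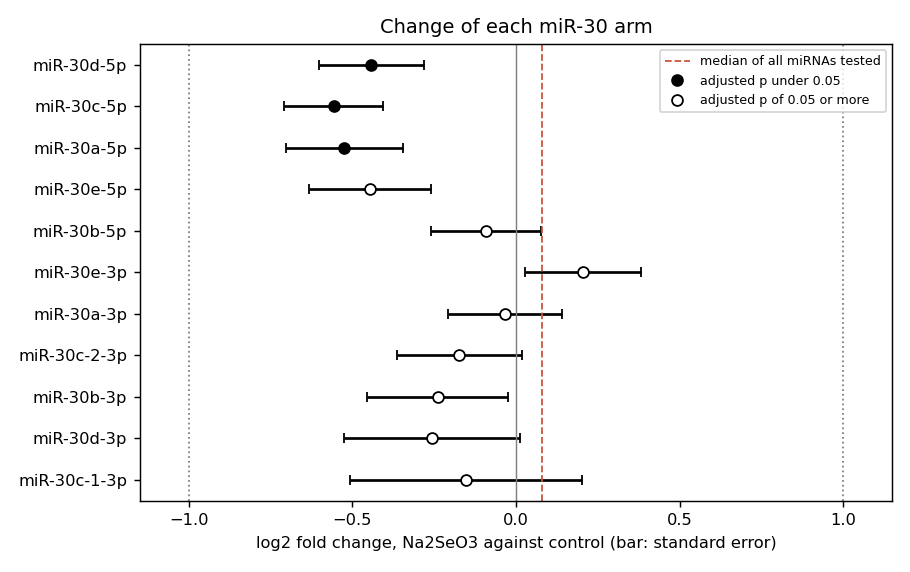
Log2 fold change of each miR-30 arm in the Na2SeO3 group against the control group, with the standard error as a bar, filled where the adjusted p-value was under 0.05. The guides miR-30d-5p, miR-30c-5p, and miR-30a-5p are filled at -0.44 to -0.56, no arm reaches the dotted lines at an absolute log2 fold change of 1, and the dashed line is the median of all 341 miRNAs tested, 0.08.

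The size of these changes depends on what the libraries are scaled to. TMM scaling put the median over all tested miRNAs at a log2 fold change of 0.08, with 71 rises and 47 falls at an adjusted p-value of 0.05. Scaling to library size only put it at 0.27, with 96 rises and 30 falls, and under it 0 of the 11 arms passed (2 at an unadjusted p-value of 0.05), with miR-30c-5p at -0.35 (adjusted p = 0.0651, edgeR). RLE and upper-quartile scaling gave 63 rises and 57 falls, and 61 rises and 58 falls, and each called 4 of the arms, all of them lower. Scaling to the raw reads that the study lists for each library gave 6 rises and 214 falls with a median of -1.08, and all 11 arms fell. The log2 fold changes were also taken relative to the median of all miRNAs under the same scaling. Over these 5 scalings they were between -0.59 and -0.64 for miR-30c-5p and -0.59 and -0.60 for miR-30a-5p. They were between -0.50 and -0.52 for miR-30d-5p and for miR-30e-5p, and -0.14 and -0.17 for miR-30b-5p. A change of scaling moves all miRNAs by nearly the same amount, which the subtraction removes. These narrow ranges were thus fixed in advance and give no test of the falls.

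**Figure D3:**
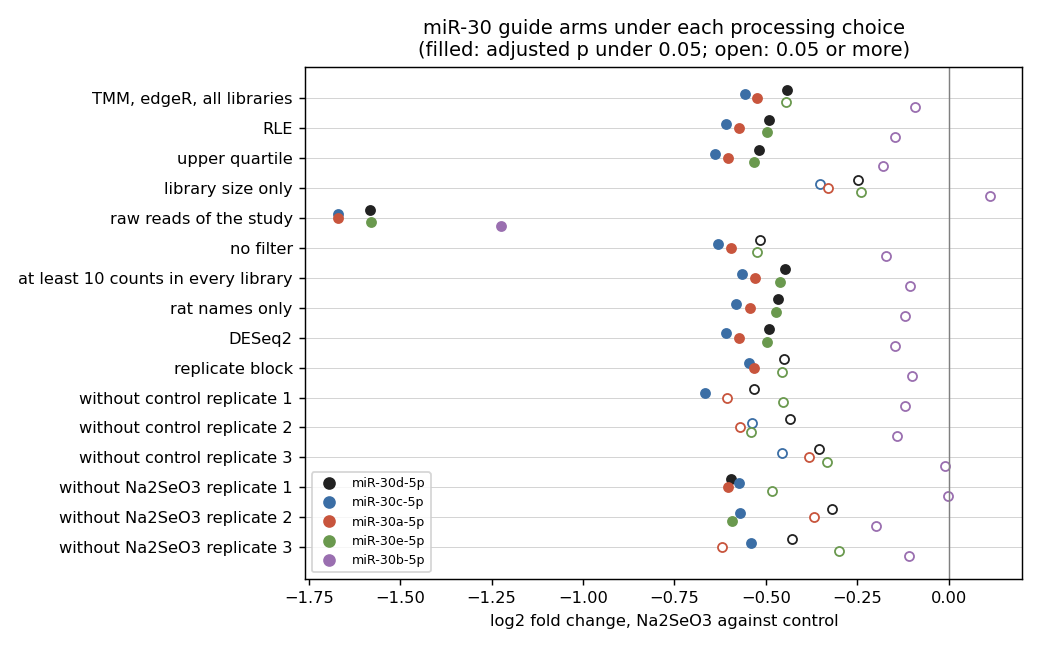
Log2 fold change of the 5 miR-30 guide arms (colors) under each processing choice (rows), filled where the adjusted p-value was under 0.05. All points of the other 4 guides lie below 0, those of miR-30b-5p lie closest to 0 and cross it with library size only, and the raw reads of the study move all 5 guides together to between -1.23 and -1.67.

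None of the 6 arms from the 3p strand passed, by edgeR, by its unadjusted p-value (0 of 6), or by DESeq2 (0 of 6). The most abundant was miR-30e-3p, at 683, 885, and 740 CPM in the control libraries and 982, 712, and 970 CPM in the Na2SeO3 libraries, and its log2 fold change was 0.21 with a standard error of 0.18 (edgeR, adjusted p = 0.415). It was the only arm of the family with a positive value, and its groups overlapped. With each library left out in turn, its log2 fold change ranged from 0.10 to 0.35. When libraries were scaled to their size alone, miR-30a-3p, miR-30c-1-3p, miR-30c-2-3p, and miR-30b-5p were positive too, at 0.15, 0.038, 0.022, and 0.11. The level of miR-30a-3p was 410 ± 64.9 and 400.3 ± 53.5 CPM (SD, n = 3 for each group), which differed by -0.03 on the log2 scale with a standard error of 0.17 (edgeR, adjusted p = 0.892). That of miR-30c-2-3p was 112 ± 13.4 and 98.8 ± 15.6 CPM, that of miR-30b-3p 57.2 ± 8.85 and 48.2 ± 7.37 CPM, and that of miR-30d-3p 27.4 ± 6.63 and 22.7 ± 2.32 CPM (SD, n = 3 each). The rarest, miR-30c-1-3p, was counted 32, 26, and 17 times in control and 5, 14, and 10 times in Na2SeO3 libraries. Its log2 fold change had a standard error of 0.35, the largest of the family, so that only a large change could be detected at this depth.

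The 3p strand of miR-30c separates the 2 genes behind miR-30c-5p. Counts of miR-30c-2-3p were 8.75, 9.08, and 10.6 times those of miR-30c-1-3p in the control libraries and 12.0, 7.29, and 10.6 times in the Na2SeO3 libraries. The excess of the 3p strand from Mir30c2 was thus seen in all 6 libraries, and the ratio did not separate the groups (two-sided exact permutation test, p = 1). A 3p count reflects both how much of a hairpin is made and how often that strand is kept, and these cannot be told apart here.

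Read by locus instead of by strand, the arms of Mir30b and Mir30d summed to 16367 ± 1981 CPM in the control and 12294 ± 1691 CPM in the Na2SeO3 group (SD, n = 3 each), and 1 of the 4 arms, miR-30d-5p, fell. The arms of Mir30a and Mir30c2 without miR-30c-5p summed to 6227 ± 926 and 4466 ± 809 CPM, and 1 of the 3 arms, miR-30a-5p, fell. Those of Mir30c1 and Mir30e without miR-30c-5p summed to 2206 ± 161 and 1944 ± 128 CPM (SD, n = 3 each), and 0 of 3 passed (edgeR). The median log2 fold changes were -0.25, -0.17, and -0.15 in the same order. With 13.8% of all miRNAs lower by the same rule, counts of 0 or 1 in 3 or 4 arms do not set a locus apart from the rest or from another locus.

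The members differed widely in arm balance, the share of the 3p arm in the counts of both arms. It was highest for miR-30e, at 32.7%, 41.9%, and 31.1% in the control libraries and 48.0%, 36.2%, and 54.2% in the Na2SeO3 libraries, with 95% Wilson intervals of at most ± 2.61 percentage points. In Na2SeO3 library 3 the 3p arm of miR-30e outnumbered its 5p arm, with an interval from 51.7% to 56.6%. At the other end, miR-30d-3p took 0.18% ± 0.02 and 0.21% ± 0.03 of the miR-30d counts (SD, n = 3 each). Between them lay miR-30a, at 6.82% ± 1.55 and 9.26% ± 0.93, and miR-30b, at 4.59% ± 1.03 and 4.13% ± 0.61 (SD, n = 3 each). Against the common guide miR-30c-5p, miR-30c-2-3p took 1.65% ± 0.12 and 2.12% ± 0.36 and miR-30c-1-3p 0.18% ± 0.03 and 0.23% ± 0.06, which understates the 3p share of each of these hairpins because the guide is made by both. The neighbours miR-30b and miR-30d thus differed in arm balance in every library.

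**Figure D4:**
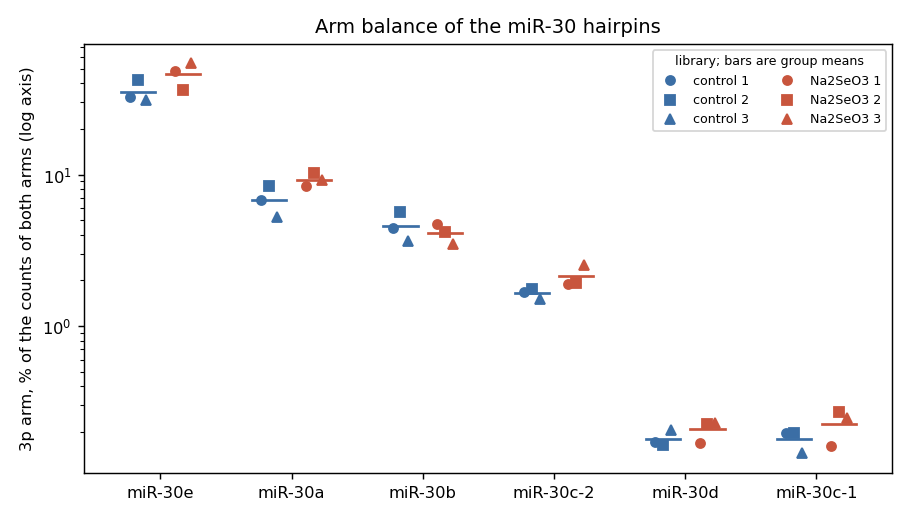
Share of the 3p arm in the counts of both arms of each miR-30 hairpin, in percent on a log axis, with 1 symbol per library and a bar at each group mean. The miR-30c-1 and miR-30c-2 values are set against the guide that both genes make. Control means of the other hairpins run from 0.18% in miR-30d to 35.2% in miR-30e, and only in miR-30c-2 do the groups not overlap.

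Set beside the 75 hairpins with both arms tested, miR-30d ranked 73 by the 3p to 5p ratio of the control group, while miR-30e ranked 41, near the middle. In the Na2SeO3 group the log2 ratio of 3p to 5p was higher in 5 of the 6 miR-30 hairpins, by 0.22 to 0.66, and differed by -0.13 in miR-30b, with miR-30c-1 and miR-30c-2 each set against the guide common to both. Of all 75 hairpins it was higher in 41. The difference was 0.66 for miR-30e (two-sided exact permutation test, p = 0.2, adjusted p = 0.3 over 6 hairpins) and 0.50 for miR-30a (exact p = 0.2, adjusted p = 0.3). It was 0.37 for miR-30c-2, the only hairpin whose groups did not overlap (exact p = 0.1, adjusted p = 0.3), where 18.7% of all hairpins did not. None of these differences passed in the exact permutation test, which with 3 libraries per group cannot go below p = 0.1. In limma on the log2 ratios of all 75 hairpins, a test chosen after seeing the data, 0% were called at an adjusted p-value of 0.05 and 14 had an unadjusted p-value under 0.05. Among these, miR-30e had an adjusted p of 0.184 (limma). Over the fits that each omit a single library, the difference was 0.42 to 0.95 for miR-30e, 0.32 to 0.67 for miR-30a, and 0.23 to 0.44 for miR-30c-2.

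The miRNA with the same seed outside the family, miR-384-5p, was far rarer than any guide. Its values were 117, 86.8, and 127 CPM in the control libraries and 65.5, 105, and 78.0 CPM in the Na2SeO3 libraries. The groups overlapped, and the log2 fold change was -0.40 with a standard error of 0.22 (edgeR, adjusted p = 0.197).

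Other families with many genes were set beside the miR-30 guides, whose median log2 fold change was -0.45 with 3 of 5 past the threshold, all of them lower. The median over the 9 let-7 and miR-98 guides was 0.02, from -0.17 to 0.42, and 0 of the 9 passed an adjusted p-value of 0.05 (edgeR). Over the 4 miR-181 guides it was 0.13, and 1 of the 4 rose. The 2 miR-26 guides had values of -0.33 and -0.13, and 1 of the 2 fell. Over all 341 miRNAs the median was 0.08, and 13.8% fell and 20.8% rose, so 1 of 4 or 1 of 2 is no result about those families. The difference between these families was not tested.

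The 3 miRNAs outside the family whose log2 CPM followed the summed guides most closely over the 6 libraries were miR-132-3p (Pearson r = 0.961), miR-200a-5p (0.958), and miR-342-3p (0.957), out of 330 miRNAs. These correlations are given as a description, since the points share the 2 groups and their scaling. Their log2 fold changes were -1.37, -1.06, and -0.57, so miR-342-3p was the one with a change of the size of the guides, at 303 ± 41.5 CPM in the control and 203 ± 5.23 CPM in the Na2SeO3 group (SD, n = 3 each).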

How the data were processed

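Small RNA libraries from 3 control and 3 Na2SeO3 rats were used. Reads were filtered by the authors (Cutadapt, Fqtrim), assessed (FastQC), and aligned with miRDeep to a rat genome from Ensembl. The authors deposited raw read counts per miRNA name, without normalization or pooling. HISAT2 is also named in the submitters' processing notes. Versions, the genome build, and the counting rule are not given in the sources used here.

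The deposited counts were read as they are. Names were filtered with filterByExpr (minimum count 10), libraries were scaled with TMM, and the quasi-likelihood test of edgeR was applied over all 341 miRNAs, with Benjamini-Hochberg adjustment. The thresholds were an adjusted p-value of 0.05 and, for DEmiRNAs, also a log2 fold change beyond 1 in either direction. The standard error was the log2 fold change over the square root of F. A prior count of 2 was used for log2 CPM. Arm ratios had 0.5 added to each count and were tested by exact permutation of the libraries (two-sided). Tests were tried on simulated data. The smallest chi-square over its degrees of freedom of any pair of libraries was 27.95, so none of the libraries was treated as a duplicate. Summed counts on miRNA names, 663096 to 2829903 per library, were taken as the depth, and the floor was 3 counts.

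The members and lists were chosen with earlier results of these data known. All rows of the family, miR-384-5p, and the 3 miRNAs with the closest pattern were named by rule. Alternatives were other scalings, filters, and tests, a block for the replicate number, and the omission of each library. Computations used edgeR 4.0.16, DESeq2 1.42.0, and limma 3.58.1 in R 4.3.3. Sequences and positions are from RefSeq (GRCr8).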

Additional observations from a re-analysis of the deposited data

How the results depend on the processing

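The call of the 3 guides was fragile, while their direction was not. The number of miR-30 arms past an adjusted p-value of 0.05, 3 with TMM scaling, was 0 with library size only and 11 with the raw reads of the study, which also gave 10 DEmiRNAs in the family and 220 miRNAs past the adjusted p-value and 188 DEmiRNAs over all names. With each library left out in turn it was 0 to 3, against 73 to 128 of all miRNAs, with 45 to 62 DEmiRNAs. The cause of these differences between fits was not tested. The test against a log2 fold change of 1 (glmTreat) called 9 DEmiRNAs over all names in place of 56, and none in the family.

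The arms whose sign turned had not passed with TMM scaling. With library size only, miR-30a-3p was at 0.15, miR-30b-5p at 0.11, miR-30c-1-3p at 0.038, and miR-30c-2-3p at 0.022. With the raw reads of the study, miR-30e-3p was at -0.95 and passed (edgeR, adjusted p = 0.0115). For miR-30a-3p the sign also turned without control library 2 (0.11) and without Na2SeO3 library 2 (0.05), in a range of -0.15 to 0.11, and with each library left out the difference in the log2 arm ratio of miR-30b ranged from -0.30 to 0.040.

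The numbers 1 to 3 are used in both groups. Libraries with the same number deviated from their group means in opposite ways, with correlations across miRNAs of -0.17, -0.18, and -0.26, so no library correlated best with its own number, and these values give no sign of a pairing. With the replicate block, 2 miR-30 arms passed, without miR-30d-5p (edgeR, adjusted p = 0.0863), and 97 of all miRNAs did, with 49 DEmiRNAs. The difference in the guides' share of counts stayed between -0.55 and -0.41 percentage points with each library left out. Sequencing batches are not given in the sources used here.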
